A study of Mus musculus with 6 samples.

Results

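Neurons and glia of the gut wall descend from neural crest cells that enter the foregut and migrate along the bowel while they multiply and begin to differentiate. *Ret*, the receptor tyrosine kinase for ligands of the GDNF family, and its co-receptor *Gfra1* keep these cells alive and moving, and *Ednrb*, the receptor for endothelin 3, keeps them multiplying along the bowel. *Phox2a* and *Hand2* encode transcription factors of autonomic neurons and their precursors. *Elavl4* encodes the neuronal RNA-binding protein HuD, and *Tubb3* encodes the neuronal beta-tubulin that marks newly formed neurons.

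These 7 genes were looked up by their symbols in the platform annotation, which named 1 probe each for *Ret*, *Phox2a*, *Ednrb*, *Elavl4* and *Tubb3* among the 33012 probes of the array. *Gfra1* and *Hand2* were not matched to a named probe. The distal midgut of mouse embryos at E13.5 was compared between 3 *Id2*+/+ and 3 *Id2*-/- samples, with 1 array per sample, to ask which genes the loss of *Id2* alters in the developing gut. *Id2* encodes an inhibitor of basic helix-loop-helix transcription factors, and the mutants lacked it in every cell rather than in the crest alone. The embryos of both genotypes were littermates, and no other allele or treatment was named for either. The methods give the mutants' background as 129/Sv or a mix with NMRI, without saying which these embryos had. Nothing says whether a sample was a single embryo, so p-values measure only the spread between these samples, which may be technical. *Id2* itself was not analysed here, and the genotype of each sample is taken from its label.

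The arrays carry the numbers 1, 2 and 3 in each genotype, and both arrays numbered 1 stood apart from the rest. Over the 11195 probes above background on all 6 arrays, log2 values of an array numbered 1 and any of the other 4 correlated across probes at 0.911 to 0.933. The other 4 correlated with each other at 0.987 to 0.992, and both arrays numbered 1 with each other at 0.988. Probes above background, with a signal-to-noise score of at least 3, numbered from 13891 to 16543 per array. Of genes with a named probe, 17 of 18 epithelial, 13 of 16 mesenchymal and 9 of 12 smooth muscle genes could be tested, beside 7547 of all 14411 probes named with 1 gene. For the neural lists the counts were 6 of 7 endothelin genes, 13 of 18 crest transcription factors and 19 of 29 pan-neuronal genes. They were 9 of 18 for the GDNF and RET pathway, 9 of 26 for transmitters and subtypes, and 3 of 11 for glia. For inherited loss of enteric neurons 8 of 11 could be tested. *Gdnf*, *Nos1*, *Chat* and *Ngfr* were among the genes not tested.

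All 5 measured genes were above background on 6 of 6 arrays, and no spot of theirs was flagged. Levels below are log2 of the signal divided by the array's median, so that 0 is the median spot of an array. Each probe is compared only with itself between arrays, because the brightness of different probes does not rank their transcripts.

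The *Ret* level was 2.59, 0.66 and -0.53 on the *Id2*+/+ arrays 1, 2 and 3, and 2.54, 0.50 and -0.37 on the *Id2*-/- arrays in the same order. The array numbered 1 was the highest and the array numbered 3 the lowest in each genotype. The genotype means were 0.91 ± 1.57 and 0.89 ± 1.49 (SD, n = 3 each). The signal-to-noise scores of *Ret* followed the same order, at 20.35, 6.11 and 3.88 in *Id2*+/+ and 33.64, 6.17 and 3.09 in *Id2*-/-. On the arrays numbered 3 the receptor was thus close to the limit of detection in both genotypes.

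The *Ednrb* level was 3.99, 3.72 and 3.98 in *Id2*+/+ and 4.61, 4.10 and 3.92 in *Id2*-/-. The genotypes overlapped, with *Id2*-/- arrays 1 and 2 above every *Id2*+/+ array and *Id2*-/- array 3 inside their range. The means were 3.90 ± 0.15 and 4.21 ± 0.36 (SD, n = 3 each).

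The *Phox2a* level was 3.94, 3.99 and 4.39 in *Id2*+/+ and 4.22, 4.07 and 4.18 in *Id2*-/-. Every *Id2*-/- value of this transcription factor lay inside the *Id2*+/+ range. The means were 4.11 ± 0.25 and 4.16 ± 0.08 (SD, n = 3 each).

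The *Elavl4* level was 6.61, 7.77 and 8.10 in *Id2*+/+ and 6.89, 7.81 and 7.98 in *Id2*-/-. Here the arrays numbered 1 were the lowest of each genotype, the opposite order to *Ret*. The means were 7.49 ± 0.78 and 7.56 ± 0.59 (SD, n = 3 each).

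The *Tubb3* level was 7.55, 7.34 and 7.65 in *Id2*+/+ and 7.99, 7.36 and 7.40 in *Id2*-/-. Only the *Id2*-/- array numbered 1 lay above the *Id2*+/+ range for this tubulin. The means were 7.51 ± 0.16 and 7.58 ± 0.35 (SD, n = 3 each).

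**Figure D1:**
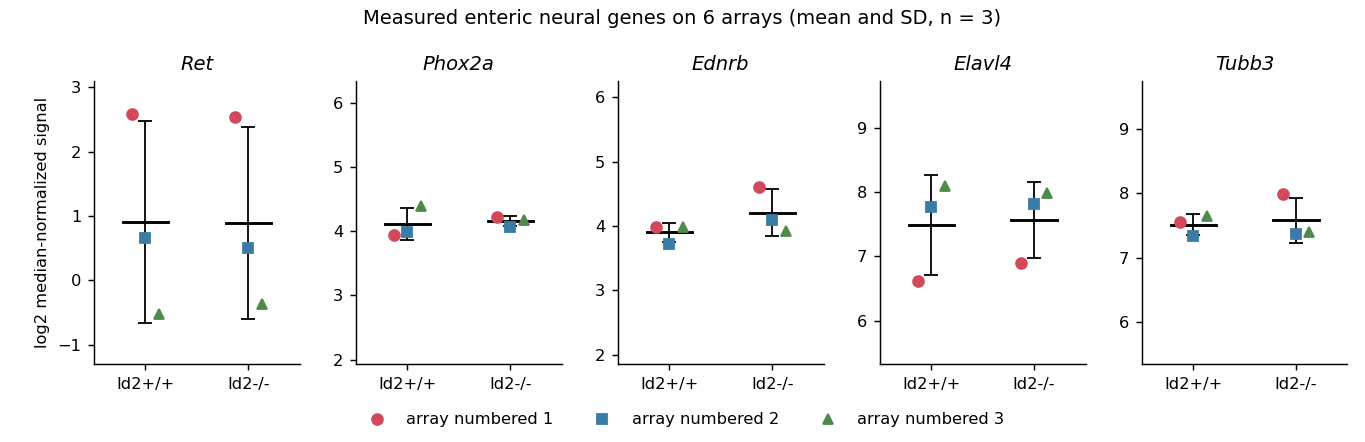
Log2 median-normalized signal (y axis, the same span of values in each panel) of the 5 measured genes by genotype (x axis), with a symbol per array by its number, the mean as a horizontal bar and the SD as a vertical bar (n = 3). *Ret* runs from 2.59 to -0.53 in *Id2*+/+ and from 2.54 to -0.37 in *Id2*-/-, and the arrays numbered 1 are the highest for *Ret* and the lowest for *Elavl4* in both genotypes.

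Factors that *Id2* holds back bind the E-box, written CANNTG, which reads the same on both strands. It occurs in 66.2% of 32851 RefSeq promoter windows of 250 bases upstream of a transcript start (GRCm38.p6), its form CAGCTG in 13% and its form CACCTG, or CAGGTG on the other strand, in 17.2%. Of the measured genes, 4 had windows there, 7 in all, and 3 windows held the motif, all of them of *Elavl4*, where 2 of the 3 overlap each other. *Ret* was not matched. The sequences below show an *Elavl4* window, with 3 motifs that begin 100, 46 and 39 bases before the start, and for contrast the *Tubb3* window, which holds none. They run 5′ to 3′ along the transcribed strand with the motif in capitals, at chr4:110287528-110287777 on the minus strand for *Elavl4* and chr8:123411303-123411552 on the plus strand for *Tubb3*.
Elavl4: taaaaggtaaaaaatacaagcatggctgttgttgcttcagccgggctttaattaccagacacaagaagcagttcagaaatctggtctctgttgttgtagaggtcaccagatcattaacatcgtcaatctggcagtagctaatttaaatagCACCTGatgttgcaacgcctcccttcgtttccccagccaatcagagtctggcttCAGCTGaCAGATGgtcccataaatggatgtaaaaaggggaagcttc
Tubb3: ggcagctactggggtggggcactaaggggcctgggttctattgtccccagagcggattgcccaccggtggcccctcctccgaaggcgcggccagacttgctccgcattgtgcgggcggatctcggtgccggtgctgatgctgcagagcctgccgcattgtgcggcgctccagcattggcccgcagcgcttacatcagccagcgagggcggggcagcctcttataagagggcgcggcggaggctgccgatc
A match is a description of these letters and not a site of binding, and its relation to the levels was not tested.

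None of the 5 genes passed the test between the genotypes. In the limma fit over 12741 tested probes without a block for the array number, 0 of 5 passed a Benjamini-Hochberg adjusted p of 0.05, and so did 0 of all probes, or 0% (234 had an unadjusted p under 0.05 in limma and 242 in the methods' t-test, which also left 0 after adjustment). The difference, *Id2*-/- minus *Id2*+/+, was 0.31 for *Ednrb* (SE 0.27, 95% interval -0.32 to 0.94), a ratio of 1.24. The differences of *Elavl4* (0.07, SE 0.47, interval -1.04 to 1.17) and *Tubb3* (0.07, SE 0.27, interval -0.56 to 0.70) were smaller. *Phox2a* differed by 0.05 (SE 0.24, interval -0.51 to 0.62) and *Ret* by -0.02 (SE 0.95, interval -2.26 to 2.22). The limma adjusted p was 1 for each of the 5. The genotypes overlapped for all 5, while they did not overlap for 512 of all tested probes, or 4.02%.

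Arrays that share a number tended to be high or low together, most of all those numbered 1, and a second fit held the number as a block. That fit estimated an infinite prior df and so gave every probe the same SE, 0.27, in place of its own spread. Its p therefore follows the size of the difference alone. The SE of *Ret* and *Elavl4* fell from 0.95 and 0.47, that of *Phox2a* rose from 0.24, and those of *Ednrb* and *Tubb3* stayed at 0.27. The *Ret* interval became -0.56 to 0.52 and the *Elavl4* interval -0.47 to 0.61, and the limma adjusted p stayed at 1 for all 5 genes. With the block 278 of all probes, or 2.18%, passed (1.06% higher and 1.12% lower in *Id2*-/-), and 0 of the 5 genes. With only the arrays numbered 1 set apart as a block, 70 of all probes, or 0.549%, passed, and again 0 of the 5. The *Ednrb* interval with the block was -0.23 to 0.85, that of *Phox2a* -0.49 to 0.59 and that of *Tubb3* -0.47 to 0.61. A permutation of 3 against 3 arrays could not reach a two-sided exact p below 0.1. Whole tissue was measured, so a change in the number of neural cells and a change in RNA per cell could not be told apart.

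**Figure D2:**
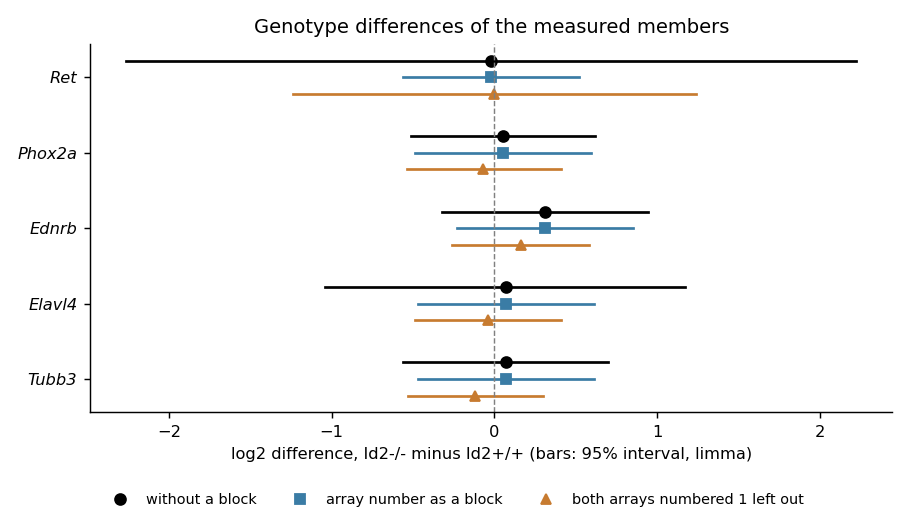
Log2 difference between genotypes (x axis, *Id2*-/- minus *Id2*+/+) of each measured gene with its 95% interval in limma, without a block, with the array number as a block, and with both arrays numbered 1 left out. Every interval holds 0, and that of *Ret* without a block, from -2.26 to 2.22, is the widest.

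Within same-numbered arrays, *Ednrb* differed by 0.62, 0.38 and -0.06 for the numbers 1, 2 and 3. The median of all tested probes moved in the same pairs by 0.35, -0.04 and -0.19. Relative to that median, *Ednrb* was higher in *Id2*-/- in 3 of 3 pairs, by 0.27, 0.42 and 0.13, a difference that did not pass the test. The same held for 14.7% of all tested probes. *Tubb3* differed by 0.44, 0.02 and -0.25 and lay within 0.10 of the median in each pair. *Elavl4* differed by 0.28, 0.04 and -0.12, and *Phox2a* by 0.29, 0.08 and -0.21. For *Ret* the pairs gave -0.05, -0.17 and 0.16, which are small beside its span of 3.12 over the 6 arrays.

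The arrays numbered 1 separated *Ret* and *Elavl4* from the other 3 genes. Both arrays numbered 1 lay above the other 4 for *Ret*, by 2.52 in *Id2*+/+ and 2.47 in *Id2*-/- against the mean of arrays 2 and 3, or 5.64-fold on average. Both lay below the other 4 for *Elavl4*, by -1.33 and -1.0, or 2.24-fold lower on average. The other 3 genes overlapped, with offsets of -0.26 and 0.09 for *Phox2a*, 0.13 and 0.60 for *Ednrb*, and 0.05 and 0.61 for *Tubb3*. With quantile normalization in place of the median scaling, *Ednrb* and *Tubb3* joined *Ret* above the other 4 arrays, and *Elavl4* stayed below them. Of all tested probes, 27.6% lay above and 31.1% below on both arrays numbered 1, together 58.7%, against 2 of the 5 genes.

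An offset at least as large as that of *Ret*, in the same direction in both genotypes, was found for 119 of all tested probes, or 0.934%. For *Elavl4* the number was 357, or 2.8%. Both arrays numbered 1 had the most probes above background, 15833 and 16543, against 13891 to 14562 on the other arrays. Their array medians were also the highest, at 980 and 1010 against 708 to 898. The most flagged probes were theirs too, 209 and 229 against 78 to 124. The labels do not say what sets these arrays apart, and its part in these levels was not tested. Leaving both out, the difference between genotypes was -0.00 for *Ret*, 0.16 for *Ednrb*, -0.07 for *Phox2a*, -0.04 for *Elavl4* and -0.12 for *Tubb3*, with limma adjusted p from 0.70 to 1. Over the remaining 4 arrays the span of *Elavl4* fell from 1.49 to 0.34, and that of *Ret* from 3.12 to 1.19, while the median probe went from 1.01 to 0.41.

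Beside the 5 members, 54 genes of the lists for neural crest, neurons and glia were tested. These lists also hold ligands, enzymes and adaptors of the GDNF, RET and endothelin pathways. Both arrays numbered 1 lay above the other 4 for 15 of the 54 (27.8%) and below for 15 (27.8%), while 24 overlapped. These shares are near the 27.6% and 31.1% of all tested probes, so they are no result about neural genes. The genes above included *Kifbp*, whose loss in people goes with Hirschsprung disease, with offsets of 2.53 and 2.49 and a level above background on 2 of 3 *Id2*+/+ arrays. *Stmn4*, a microtubule regulator of the stathmin family, was also above, at 1.94 and 1.72. The genes below included *Vip*, a neuropeptide of enteric neurons, with offsets of -1.99 and -1.42. *Map1b*, a microtubule-associated protein of growing axons, was below too, at -1.95 and -1.75.

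**Figure D3:**
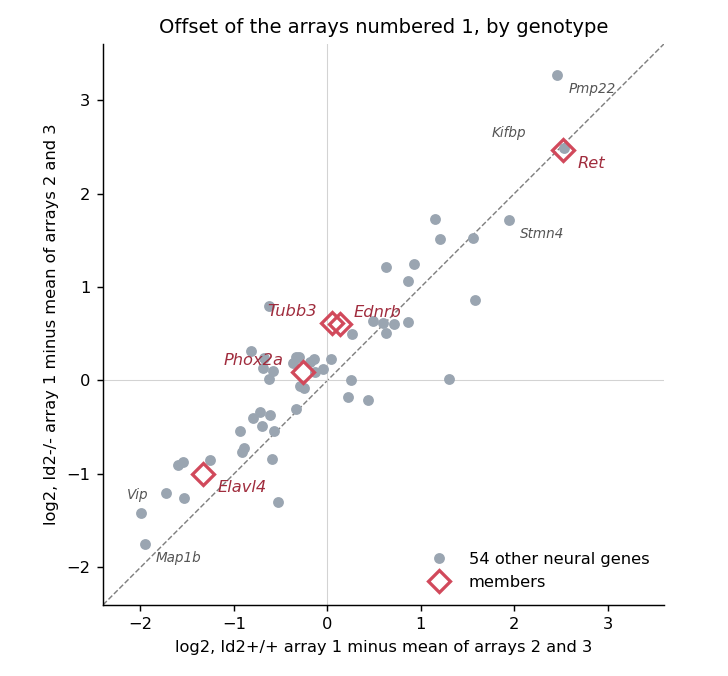
Offset of the array numbered 1 from the mean of arrays 2 and 3 on the log2 scale, in *Id2*+/+ (x axis) and in *Id2*-/- (y axis), for the 5 members (diamonds) and the 54 other neural genes (dots). The dashed line marks equal offsets, and *Ret* lies at 2.52 and 2.47 while *Elavl4* lies at -1.33 and -1.0.

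Between genotypes, 0 of the 54 other neural genes passed the limma test without the block, with 2 at an unadjusted p under 0.05, and 51 (94.4%) differed by less than 0.5, against 92.2% of all tested probes. Their median difference was 0.10, with quartiles of -0.06 and 0.21, beside quartiles of -0.07 and 0.16 over all tested probes. Among the GDNF and RET pathway genes 0 of 9 tested, *Ret* included, passed. The pathway target *Etv4*, a transcription factor, differed by 0.34, the adaptor *Grb7* by -0.38 and the adaptor *Grb10* by 0.38. The ligand *Nrtn*, neurturin, differed by 0.19.

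Of the 6 endothelin genes tested, *Ednrb* included, 0 passed without the block. The ligand *Edn3* differed by 0.30 and *Edn2* by -0.50. *Edn1*, the endothelin best known from vessel walls, was at 2.06, 2.14 and 3.04 in *Id2*+/+ and at 0.46, 1.99 and 1.53 in *Id2*-/-. The *Id2*-/- arrays were all below the *Id2*+/+ arrays, and 2 of the 3 were above background. Its difference was -1.08 (SE 0.46), with a limma adjusted p of 1 without the block. With the block, where the pairs of -1.59, -0.15 and -1.51 do not enter the SE, the limma adjusted p was 0.00612.

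Of 13 crest transcription factors tested, *Phox2a* included, 0 passed, and their median difference was 0.14. *Insm1* and *Isl1* of this list are also in the enteroendocrine list, and whole tissue was measured. The values are therefore not those of crest cells alone. The homeobox gene *Hmx3* differed by 0.34, *Snai2*, a regulator of crest delamination, by 0.32 and *Hoxb5* by 0.19. Of 19 pan-neuronal genes, *Elavl4* and *Tubb3* included, 0 passed without the block. The synaptic vesicle gene *Syt1* differed by 0.32, without overlap of the genotypes, and the endosomal gene *Nsg2* by -0.40. *Nefm*, the medium neurofilament subunit, was at 1.16, 0.17 and 0.45 in *Id2*+/+ and at 2.09, 1.76 and 1.16 in *Id2*-/-. It was above background on 1 of 3 *Id2*+/+ and 3 of 3 *Id2*-/- arrays. Its difference was 1.08 (SE 0.37), with a limma adjusted p of 1 without the block. With the block and its single SE, the limma adjusted p was 0.00612, as for *Edn1*, whose difference is of the same size.

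Transmitter and subtype genes gave 0 of 9 past the test, with differences of 0.41 for the neuropeptide *Gal*, 0.33 for the enkephalin precursor *Penk* and 0.27 for *Slc18a3*, the vesicular acetylcholine transporter. In the glial list 3 genes were tested, and *Fabp7*, a fatty acid binding protein of glial precursors, differed by 0.09. *Pmp22*, a myelin protein that many other cells also make, was at 3.50, 0.85 and 1.24 in *Id2*+/+ and at 3.14, 0.01 and -0.27 in *Id2*-/-. Its difference was -0.90, with a limma adjusted p of 1 without the block and 0.0476 with it, again from the size of the difference alone, and 1 of 3 *Id2*-/- arrays was above background. *Nefm*, *Edn1* and *Pmp22* were the 3 of the 54 other listed genes that passed with the block, beside 2.18% of all tested probes. So few genes are no result about neural genes. None of the 3 passed with the block on quantile-normalized values or with the arrays numbered 1 alone as a block.

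**Figure D4:**
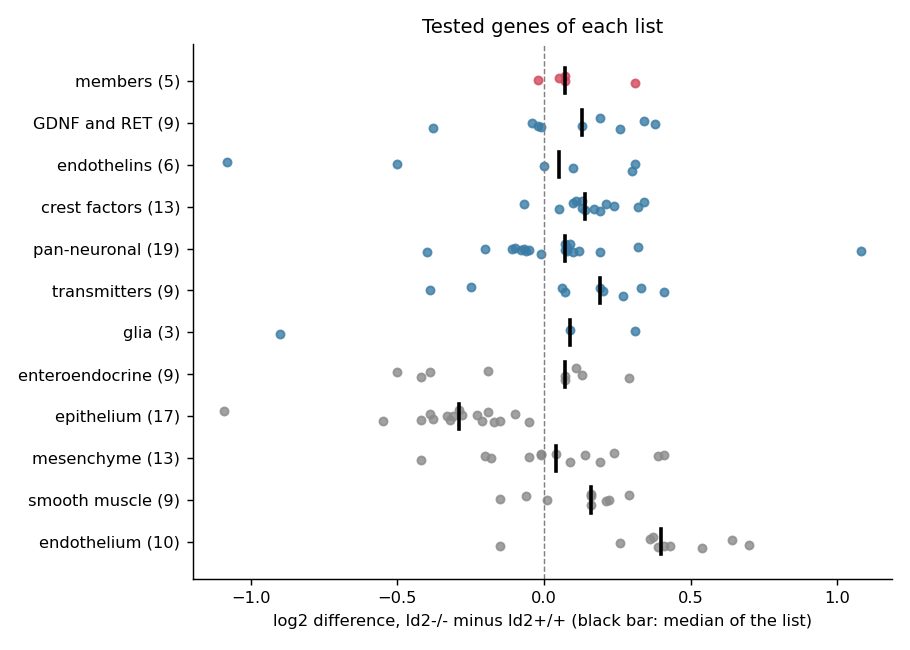
Log2 difference between genotypes (x axis, *Id2*-/- minus *Id2*+/+) of the tested genes in each list, a dot per gene, with the number of genes in parentheses and the median as a black bar. The members run from -0.02 to 0.31 and are also shown in the other neural lists they belong to. The neural genes that are no members run from -1.08 (*Edn1*) to 1.08 (*Nefm*), and all 17 epithelial genes lie below 0.

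Genes of the other cell types in the tissue were read beside these. The 17 epithelial genes were all lower in the *Id2*-/- mean, with a median difference of -0.29, but their median by array number was 0.41, -0.48 and -0.83. Their summed normalized signal ranged from 674 to 1659 in *Id2*+/+ and from 884 to 986 in *Id2*-/-. The 10 endothelial genes had a median difference of 0.40, and by array number of 1.18, 0.22 and -0.13. The 9 enteroendocrine genes, a class of cells that shares genes with neurons, had a median of 0.07, the 13 mesenchymal genes of 0.04 and the 9 smooth muscle genes of 0.16. The summed signal of the 5 members was 322 to 514 in *Id2*+/+ and 422 to 456 in *Id2*-/-. This sum mostly gives the bright probes of *Elavl4* and *Tubb3*, at 97.7 and 187 on *Id2*+/+ array 1, where *Ret* was at 6. The part of these cell types in the neural values was not tested.

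The genes most like each member over the 6 arrays were taken from 6728 named probes above background throughout, by the root mean square difference of log2 values centred on each probe's mean. For *Ret* they were *Fip1l1*, *Nedd4* and *Ip6k2*, each at 0.32, with mean offsets of the arrays numbered 1 of 2.10, 2.33 and 2.91. For *Elavl4* they were *Nr1h3* at 0.08 and *Apbb2* and *Ppp1r3b* at 0.09, with offsets from -1.14 to -1.05. The patterns nearest to *Ednrb* (*Gcc1*, *Cacna1h*, *S100a16*), *Tubb3* (*Cpsf1*, *Gatc*, *Nckap1*) and *Phox2a* (*Polr2j*, *BC004004*, *Garnl3*) lay within 0.06. Among the members themselves *Ednrb* and *Tubb3* were the closest, at 0.14, and *Ret* and *Elavl4* the farthest apart, at 1.81.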

How the data were processed

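RNA of 6 distal midgut samples was amplified for 1 round and hybridised to Applied Biosystems mouse genome survey arrays in 1 colour, so the number of arrays limits the precision. The deposited files give for each probe a scanner intensity, a signal-to-noise score, a flag and the normalized signal that the authors made by dividing by the array median. A background subtraction is not stated for them. Normalizing constants were 708 to 1010, and the deposited series table holds the same normalized signals (largest difference 0).

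From these, log2 values were fitted with limma 3.58.1 in R 4.3.3 (lmFit, eBayes) over 12741 probes with a flag under 5000 on all 6 arrays and a score no lower than 3 throughout 1 genotype or both. The methods state the flag limit in the opposite direction. Benjamini-Hochberg adjustment ran over all tested probes, with a threshold of 0.05, and the fit was tested on simulated data. For the block fit the simulated probes all had the same residual spread, so its single SE was not checked for probes of unequal spread. After subtraction of the genotype mean, arrays 1, 2 and 3 of one genotype correlated with their namesakes of the other at 0.838, 0.644 and 0.579. On this ground the numbers were taken to pair them, which the labels do not state. Arrays numbered 2 and 3 of different genotypes correlated almost as much, at 0.638 and 0.549. With 3 arrays centred on their own mean, the split of the arrays numbered 1 by itself moves arrays 2 and 3 together. These values therefore hardly tell how the arrays numbered 2 and 3 pair. Figures were drawn with matplotlib 3.10.9.

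Members and gene lists were chosen with earlier results of these data known. Besides the members, the text names the 3 genes of each neural list with the smallest unadjusted p and the 3 genes most like each member, and a gene with several tested probes is given by its brightest. *Vip*, *Map1b* and *Stmn4* were chosen after their values were seen. Names come from the platform annotation, which pairs 14411 probes with 1 gene, 247 with several and 18354 with none. Alternatives were the array number as a block, quantile normalization, an offset of 0.5, a stricter filter and none, a trended prior, the series table, the methods' t-test and each array left out.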

Additional observations from a re-analysis of the deposited data

How the results depend on the processing

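Across 17 alternatives, of which 2 were chosen after seeing the data (the arrays numbered 1 as a block, and both left out), 0 of the 5 members passed an adjusted p of 0.05 under any, and their lowest adjusted p was 0.70. With the replicate block, which pairs the arrays by number, 278 of all tested probes passed in place of 0, by a fit with 1 SE of 0.27 for all probes, and 3 of the listed neural genes that are no members (*Nefm*, *Edn1*, *Pmp22*). With the arrays numbered 1 as a block, 70 of all probes passed. With the block on quantile-normalized values 0 of all probes passed in limma, with 944 at an unadjusted p under 0.05. Quantile normalization raised the number of members above the other 4 arrays on both arrays numbered 1 from 1 to 3. With both arrays numbered 1 left out, the differences of *Phox2a*, *Elavl4* and *Tubb3* turned to -0.07, -0.04 and -0.12, and the other member differences outside the omission of single arrays kept their sign. Leaving out each array in turn gave -0.84 to 0.82 for *Ret*, -0.03 to 0.20 for *Phox2a*, 0.11 to 0.46 for *Ednrb*, -0.37 to 0.40 for *Elavl4* and -0.13 to 0.18 for *Tubb3*, with 10 of 30 values of the opposite sign. The cause of these shifts was not tested.

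*Ret* was near the limit of detection on the arrays numbered 3, at signal-to-noise scores of 3.88 and 3.09, and *Nefm*, *Edn1* and *Pmp22* were below background on part of the arrays of a genotype. With 3 arrays a genotype, the interval of *Ret* without the block runs from -2.26 to 2.22.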
